A study of Sus scrofa with 18 samples.

Results

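The cluster of miR-191 and miR-425 is a pair of microRNA hairpins that the RefSeq annotation of Sscrofa11.1 places side by side inside the gene DALRD3. Its members were taken by name from the deposited table of sequence variants: every entry whose mature miRNA was ssc-miR-191 or ssc-miR-425, with or without an arm suffix. This gave 3 mature miRNAs of 240 in the table, namely miR-191, miR-425-5p and miR-425-3p. They held 393 distinct sequences of 16636, of which 306 belonged to miR-191, 66 to miR-425-5p and 21 to miR-425-3p. None of the 393 was listed under another mature miRNA.

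Backfat from 18 Italian Large White pigs, each with its own small RNA library, was compared between animals of high and of low backfat deposition, 9 in each class. The pigs shared housing and diet, weighed 150 to 160 kg and were sampled at a slaughterhouse. High backfat was represented by 4 females with 5 castrated males aged 235 to 250 days (median 241), and low backfat by 5 females with 4 castrated males aged 233 to 249 days (median 244). No allele or treatment other than castration is given, so castration and male sex cannot be told apart, and whole backfat mixes fat cells with other cells, so a change in cell number and a change in RNA per cell cannot be told apart either.

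MicroRNAs are cut from hairpin precursors by Drosha and then Dicer, and 1 strand of the resulting duplex is usually kept by an Argonaute protein. Target choice rests mostly on the seed, the bases near the 5′ end of the miRNA, so a form with a moved 5′ start has another seed, while a change at the 3′ end leaves the seed as it was. Neighbouring hairpins such as these are often cut from 1 primary transcript, and miR-191 is widely used as a stable reference in qPCR of miRNAs.

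The annotated mature sequences are shown first because the later results turn on where the deposited forms start and end. They are copied from the exact entries of the deposited table, 5′ to 3′, with the seed (bases 2 to 8) in capitals.
miR-191: cAACGGAAtcccaaaagcagctg
miR-425-5p: aATGACACgatcactcccgttga
miR-425-3p: aTCGGGAAtgtcgtgtccgccc
The 3 seeds differ from each other. None of the other mature miRNAs among the 225 with an exact entry shared any of them.

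Library totals over distinct sequences ran from 9601510 to 34588252 counts. The library codes in the descriptions fall into 4 runs of numbers, each with both classes, and the run AC485 to AC488 held 3 low libraries and 1 high library. High replicate 6, from a female, stood apart: its TMM scaling factor was 1.37 against 0.805 to 1.14 in the other libraries, and its miR-21 (4027 CPM) and miR-126-5p (8348 CPM) were the lowest of all, the others starting at 9953 and 18181 CPM. Of the skeletal muscle marker list, all 4 tested of 5 had a negative log2 fold change, high against low, and 0 passed. Its summed level ran from 48.3 to 130 CPM in high and from 78.9 to 211 CPM in low backfat, and its part in the results below was not tested. The fat and connective tissue list was led by miR-143-3p (194101 CPM). Of its 4 members 3 had a negative log2 fold change and 1 passed, miR-199a-5p at -0.38 (adjusted p = 0.0486, edgeR with Benjamini-Hochberg adjustment), the only called miRNA of the marker lists, whose part in the results was likewise not tested. The list's summed level ran from 123472 to 246379 CPM in high and from 167010 to 246308 CPM in low backfat. None of its members is specific to fat cells, so the tissue label could be checked only against that list. Negative values were also found for 2 of 4 red blood cell, 1 of 3 tested white blood cell and 1 of 2 endothelium markers. None of these lists held a called miRNA. Of all 221 miRNAs tested, 118 had a negative log2 fold change and 8 passed.

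The cluster's members sat at very different levels. Levels are counts scaled to a common library total of 1000000 (CPM) of all forms of a miRNA summed, scaled between libraries by the trimmed mean of M values (TMM). miR-191 averaged 28797 ± 5163 CPM (SD, n = 18) and was the sixth most abundant of 221 miRNAs tested, at 2.88% ± 0.535 of all counts. The main strand of the partner hairpin, miR-425-5p, averaged 336 ± 55.9 CPM and stood at rank 77. Its passenger strand, miR-425-3p, averaged 30.2 ± 5.83 CPM and stood at rank 149. In single libraries miR-191 had 53.8 to 129 times the counts of miR-425-5p, with a median of 84.3. miR-425-5p in turn had 6.18 to 17.4 times the counts of miR-425-3p, with a median of 11.4.

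miR-191 ran from 22402 to 39805 CPM with a median of 30939 in high backfat, and from 19923 to 33323 CPM with a median of 27176 in low backfat. The classes overlapped over most of their range, and 6 of 9 high libraries lay above the low median. The log2 fold change, high against low, was 0.12 ± 0.12 (SE; adjusted p = 0.588, edgeR's quasi-likelihood test with Benjamini-Hochberg adjustment over 221 miRNAs).

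miR-425-5p ran from 303 to 419 CPM with a median of 357 in high backfat, and from 239 to 416 CPM with a median of 307 in low backfat. High libraries were mostly in the upper part of the range, with 8 of 9 above the low median, but 1 low library came within the top of the high range. The log2 fold change was 0.25 ± 0.11 (SE; unadjusted p = 0.0460, adjusted p = 0.188, edgeR with Benjamini-Hochberg adjustment).

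miR-425-3p ran from 22.7 to 45.2 CPM with a median of 26.03 in high backfat, and from 27.8 to 38.7 CPM with a median of 30.4 in low backfat. The high class held both the lowest and the highest libraries, and the highest was high replicate 6, which was also the highest for miR-425-5p. Without it the log2 fold changes were 0.09 for miR-191, 0.22 for miR-425-5p and -0.20 for miR-425-3p, with adjusted p-values of 0.684, 0.246 and 0.301 (edgeR). With all libraries the log2 fold change of miR-425-3p was -0.10 ± 0.13 (SE; adjusted p = 0.660, edgeR with Benjamini-Hochberg adjustment).

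Thus 0 of 3 members passed in a comparison where 8 of 221 miRNAs did (3.62%), or 13 without high replicate 6. At an unadjusted p under 0.05, 1 of 3 members passed, against 54 of 221 miRNAs (24.4%), and DESeq2 called 22 of 221 and none of the cluster. Within the 4 runs of library codes the difference of mean log2 CPM of miR-191, high minus low, was 0.36, 0.37, 0.23 and -0.09. For miR-425-5p it was 0.34, 0.09, 0.44 and 0.07, positive in each run. For miR-425-3p it was -0.42, -0.07, 0.00 and -0.21, in the order AC485 to AC488, U074 to U077, U134 to U139 and U966 to U969.

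**Figure D1:**
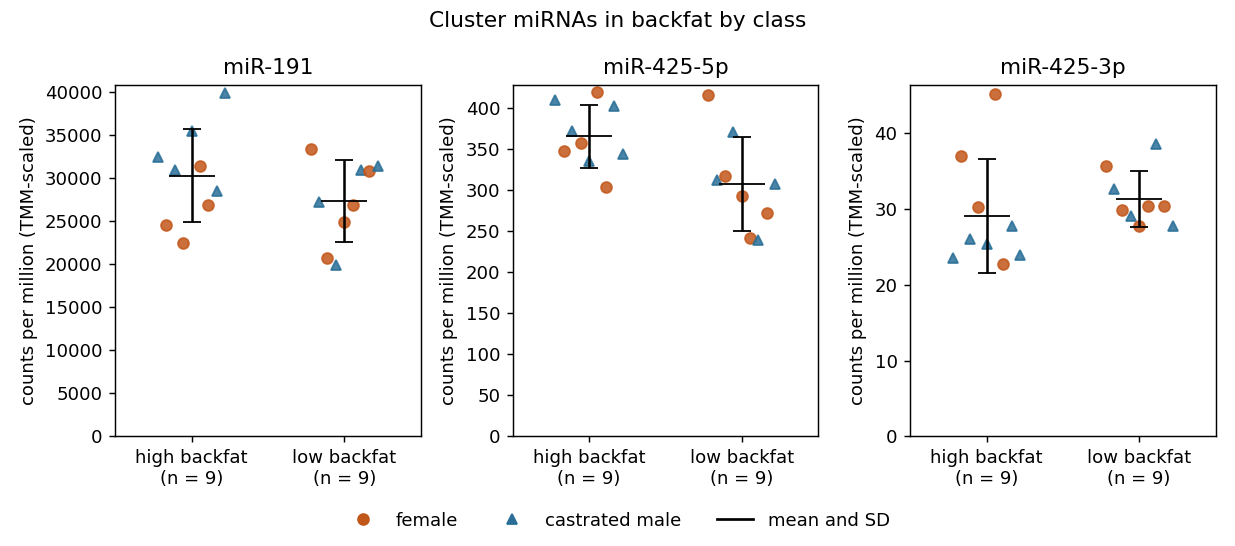
TMM-scaled CPM (vertical axes, each from 0) of miR-191, miR-425-5p and miR-425-3p in the 9 high and 9 low backfat libraries; circles are females, triangles castrated males, and black bars the mean and SD. The classes overlap for all 3, and 8 of 9 high libraries lie above the low median of miR-425-5p.

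Between castrated males and females the members differed little. The log2 fold change, castrated against female with class as a covariate, was 0.17 ± 0.12 for miR-191, 0.03 ± 0.11 for miR-425-5p and -0.18 ± 0.13 for miR-425-3p (SE). Their adjusted p-values were 0.628, 0.952 and 0.654 (edgeR, Benjamini-Hochberg). No miRNA of 221 passed (0%); 17 had an unadjusted p under 0.05 (7.69%), none of them in the cluster, and DESeq2 called 0. The sign for miR-425-5p turned to -0.05 with exact and length variants only.

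The class contrast was then taken within each sex. In females the log2 fold changes were -0.06 for miR-191, 0.21 for miR-425-5p and 0.13 for miR-425-3p, and 0 of 221 miRNAs passed (0%) by edgeR, with 20 at an unadjusted p under 0.05 (9.05%). In castrated males they were 0.29, 0.28 and -0.34, with adjusted p-values of 0.297, 0.319 and 0.267, where 9 of 221 miRNAs passed (4.07%). At an unadjusted p under 0.05 there were 49 (22.2%), none of them in the cluster. miR-425-3p ran from 23.6 to 27.73 CPM in the 5 high castrated males and from 27.76 to 38.7 CPM in the 4 low ones. These ranges nearly met without overlapping, and the fit did not call it. How many of all 221 miRNAs lie apart in the same split was not counted. In females the same strand ran from 22.7 to 45.2 CPM in the 4 high and from 27.8 to 35.7 CPM in the 5 low animals. Without high replicate 6 the value of miR-425-3p in females turned to -0.06, and the difference between the sexes was -0.25 (adjusted p = 0.718, edgeR). The difference between the sexes was -0.47 for miR-425-3p (unadjusted p = 0.080, adjusted p = 0.574, edgeR), 0.34 for miR-191 (adjusted p = 0.686) and 0.07 for miR-425-5p (adjusted p = 0.921). No miRNA passed for this difference by edgeR (0%), 25 of 221 had an unadjusted p under 0.05 (11.3%), and DESeq2 called 3, none of the cluster.

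The balance of the arms of the miR-425 hairpin can be read within a library, where it needs no scaling between libraries. In high backfat miR-425-5p had 9.26 to 17.4 counts per count of miR-425-3p, with a median of 13.4. In low backfat it had 6.18 to 12.7, with a median of 10.5. The mean was 13.1 ± 2.58 in high and 9.91 ± 2.002 in low backfat (SD, n = 9 each). The log2 ratio was higher by 0.40 in high backfat, with p = 0.0136 in an exact two-sided permutation test and 0.0545 after Benjamini-Hochberg adjustment over the 4 ratio tests. It therefore did not pass, and 4 of the 18 values that leave out 1 library did, those without high replicate 2, high replicate 6, low replicate 1 or low replicate 4. Over the 18 the adjusted p ran from 0.0189 (without high replicate 6, log2 difference 0.46) to 0.113 (permutation tests). Within runs of library codes the log2 difference was 0.76, 0.16, 0.44 and 0.28 in the order given above.

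The arm ratio differed most clearly among castrated males, a split made after the pooled values were seen. The 5 high castrated males had 17.4, 14.3, 13.2, 14.5 and 14.4 counts of miR-425-5p per count of miR-425-3p. The 4 low castrated males had 9.54, 12.7, 6.18 and 11.1, all below them, the nearest at 12.7 against 13.2. The log2 difference was 0.62, and its exact permutation p of 0.00794 is the smallest that 5 against 4 allows. In females it was 0.14 (exact permutation p = 0.381, 4 against 5), with high animals at 9.38, 11.8, 9.26 and 13.4 and low ones at 11.7, 10.6, 10.5, 7.97 and 8.94. The difference between the sexes in this ratio was not tested. Arm ratios of other hairpins were not tested either, so how common such a separation is among them is not known here. The counts of miR-425-3p were low in places, at 306 in high replicate 1 and 225 in high replicate 9.

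The ratio of miR-191 to miR-425-5p, the partners of the cluster, did not pass for class. The log2 difference, high minus low, was -0.12 (exact permutation p = 0.483), and castrated minus female it was 0.12 (exact permutation p = 0.467). Both fell to near 0 without the libraries AC485 to AC488, at 0.0021 and -0.0055.

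Across the 18 libraries the partners showed little correlation. Pearson's r of log2 CPM between miR-191 and miR-425-5p was 0.10 (permutation p = 0.703, adjusted p = 0.973 over 3 pairs) and Spearman's rho 0.23 (permutation p = 0.356, adjusted p = 0.601). Without the 2 libraries farthest from the median of miR-191, r was 0.20. Between miR-191 and miR-425-3p r was -0.13 (permutation p = 0.608, adjusted p = 0.973) and rho -0.21 (permutation p = 0.401, adjusted p = 0.601), with r = -0.19 without the 2 farthest libraries.

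The arms of miR-425 gave r = -0.01 (permutation p = 0.973, adjusted p = 0.973) and rho = -0.05 (permutation p = 0.838, adjusted p = 0.838), and r was 0.27 without the 2 farthest libraries. Without high replicate 6 the pooled r of the arms was -0.26.

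Within each sex and class the values below carry no adjustment, and no difference between groups was tested. Values within a sex pool both classes, and the permutations took no account of class. Among castrated males the miR-425-3p ranges of the classes nearly met without overlapping (23.6 to 27.73 CPM in high, 27.76 to 38.7 CPM in low). Their r for the arms therefore cannot be told apart from the class difference. For the arms r was 0.64 in 9 females (exact permutation p = 0.0617) and -0.78 in 9 castrated males (exact permutation p = 0.0157). For miR-191 with miR-425-5p it was 0.25 in females (exact permutation p = 0.510) and -0.13 in castrated males (exact permutation p = 0.723), and for miR-191 with miR-425-3p 0.38 (exact permutation p = 0.321) and -0.40 (exact permutation p = 0.278). Without high replicate 6 the values of the 8 females were 0.45 for the arms (exact permutation p = 0.255), 0.06 for miR-191 with miR-425-5p (exact permutation p = 0.883) and 0.16 for miR-191 with miR-425-3p (exact permutation p = 0.709). By class, r for the arms was 0.44 in high (exact permutation p = 0.242) and -0.07 in low backfat (exact permutation p = 0.855), and for miR-191 with miR-425-3p -0.33 (exact permutation p = 0.382) and 0.47 (exact permutation p = 0.189). For miR-191 with miR-425-5p it was 0.10 in high (exact permutation p = 0.791) and -0.17 in low backfat (exact permutation p = 0.658). The scaling also mattered. On log2 shares of counts without TMM, r between the arms was 0.53 (adjusted p = 0.0761, permutation test). That between miR-191 and miR-425-3p turned to 0.25 (adjusted p = 0.311, permutation test). High replicate 6 had the highest share of counts for each member, and its part in these values was not tested. In the 6 libraries of run U134 to U139, r was 0.50 for miR-191 with miR-425-5p (exact permutation p = 0.306), 0.20 for miR-191 with miR-425-3p (exact permutation p = 0.699) and 0.43 for the arms (exact permutation p = 0.401). The other runs hold 4 libraries each, too few for a value.

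**Figure D2:**
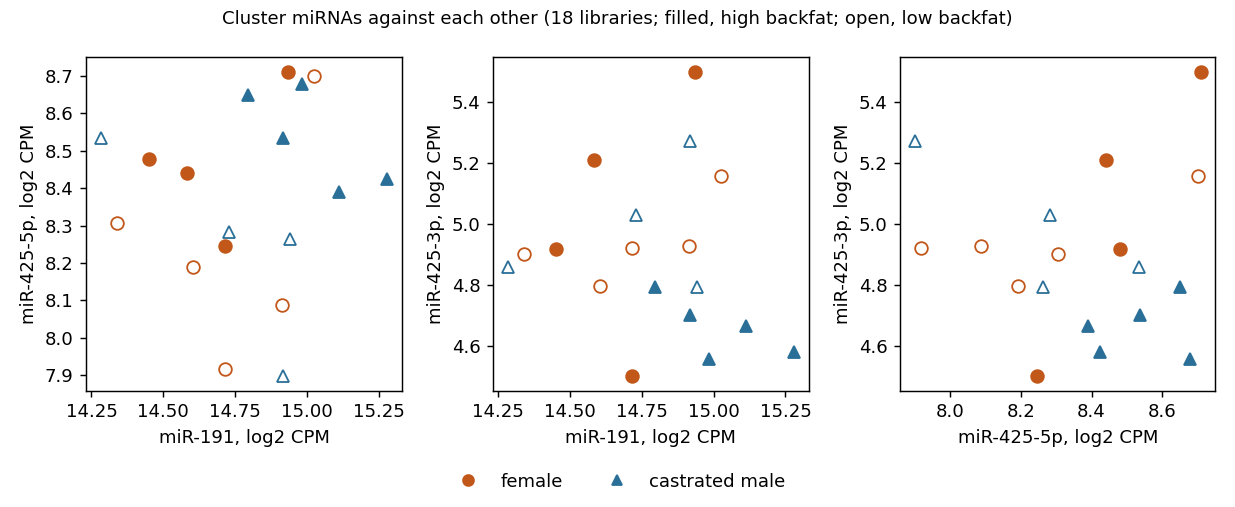
Each panel plots log2 CPM of a pair of cluster miRNAs over the 18 libraries; circles are females, triangles castrated males, filled symbols high and open symbols low backfat. In the right panel the triangles of both classes together fall from left to right (r = -0.78). All filled triangles lie below the open ones on the miR-425-3p axis, the closest at 27.73 and 27.76 CPM, so class is not held apart there. The circles rise (r = 0.64, or 0.45 without high replicate 6, the circle at the top).

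Many miRNAs outside the cluster tracked a member more closely than its partner did, given here as a description over 18 libraries that share their scaling. Of 172 others with a mean of at least 10 CPM, 60 had a higher r with miR-191 than miR-425-5p had. The closest to miR-191 were miR-130b (r = 0.59), miR-10b (0.55), miR-486 (0.52), miR-146a-5p (0.49) and miR-15b (0.48). The closest to miR-425-5p were miR-92b-3p (0.79), miR-27b-5p (0.78), miR-1343 (0.78), miR-128 (0.75) and miR-671-3p (0.74). The closest to miR-425-3p were miR-145-5p (0.77), miR-149 (0.72), miR-204 (0.69), miR-874 (0.62) and miR-532-3p (0.60).

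As a reference miRNA, miR-191 varied less than the median abundant miRNA, though it was not among the steadiest. The SD of its log2 CPM over the 18 libraries was 0.27, the 40th lowest of 221. It was the 18th lowest of the 52 miRNAs with at least 1000 CPM, whose median SD was 0.31. The SD of miR-425-5p was 0.25 (33rd lowest) and that of miR-425-3p 0.26 (39th lowest), against a median of 0.40 over all 221. Among the 9 tested of 12 miRNAs commonly used for scaling, both members included, let-7a had the lowest SD (0.18) and miR-423-5p the highest (0.53). Of these 9, 6 had a positive and 3 a negative log2 fold change between classes, and 0 passed. Over all 221 miRNAs, 103 were positive and 8 passed. The median of the 9 was 0.12, which is the value of miR-191 itself, against -0.03 over all miRNAs.

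The 3 members differed in how their ends were cut. Of miR-191 counts, 83.3% ± 2.89 in high and 83.1% ± 3.12 in low backfat were the annotated sequence itself (SD, n = 9 each). Its next forms were the same sequence with 1 more base at the 3′ end (3.17% of its counts on average), 1 base shorter there (2.40%), and 1 base shorter at the 5′ end (2.06%). They are shown because they mark the range of ends of the most abundant member, with bases past the annotated end in capitals.
miR-191, longer by 1: caacggaatcccaaaagcagctgT
miR-191, shorter by 1: caacggaatcccaaaagcagct
miR-191, start moved by 1: aacggaatcccaaaagcagctg

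For miR-425-5p the annotated 23-base sequence was a minority. It made up 9.08% ± 2.14 of the counts in high and 8.01% ± 0.496 in low backfat. The main form was 1 base shorter at the 3′ end and held 49.0% to 69.0% of the counts in single libraries. The next, longer by 2 bases, held 8.96% to 14.7%, and a form longer by 1 base held 4.09% to 7.24%. A form in which the last annotated base was replaced, A23T, held 3.01% on average. Substitutions are written as the annotated base, its position counted from 1 at the annotated 5′ end, and the base read. Capitals mark bases past the annotated end or changed from it.
miR-425-5p, main form: aatgacacgatcactcccgttg
miR-425-5p, longer by 2: aatgacacgatcactcccgttgaGT
miR-425-5p, longer by 1: aatgacacgatcactcccgttgaG
miR-425-5p, A23T: aatgacacgatcactcccgttgT

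miR-425-3p was mostly cut at another 5′ start than the annotated one. Forms with another start held 64.7% ± 4.19 of its counts in high and 66.1% ± 2.60 in low backfat, most of them starting 1 base upstream. The main form had that start and held 21.2% to 33.0% of the counts in single libraries, while the annotated sequence held 4.90% to 19.2%. Its seed, ATCGGGA, differs from the annotated TCGGGAA and was shared by none of the other mature miRNAs with an exact entry. A last base changed to T was common on this strand: such forms held 26.9% ± 3.10 of its counts in high and 28.8% ± 3.89 in low backfat, against 3.09% ± 0.635 and 3.58% ± 0.799 for miR-425-5p and 0.134% ± 0.0321 and 0.151% ± 0.0441 for miR-191. A last T that matches the precursor is not counted in these shares. The miR-191 form longer by 1 T, 3.17% of its counts on average, is therefore left out. The shares are thus not directly comparable between members. The table does not tell an added base from a misread one. The main form is printed with its seed in capitals, and the next with the changed base in capitals.
miR-425-3p, main form: cATCGGGAatgtcgtgtccgcc
miR-425-3p, C22T: catcgggaatgtcgtgtccgccT

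**Figure D3:**
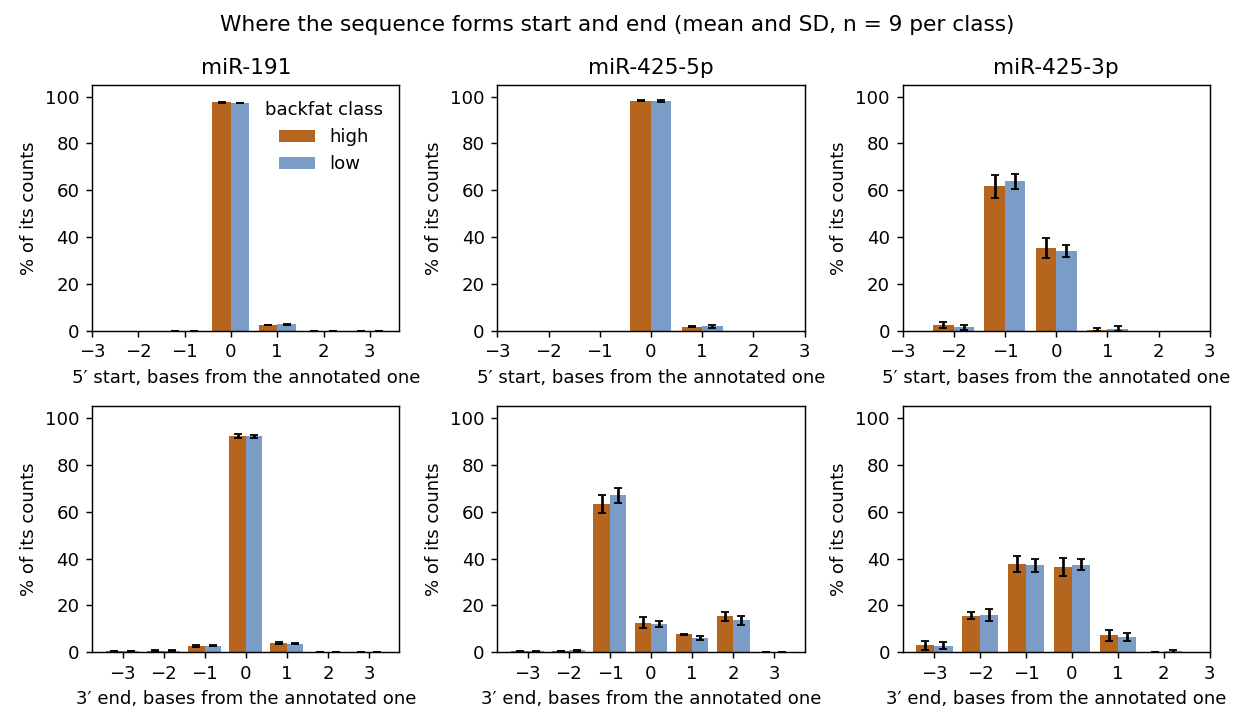
Mean share of each miRNA's counts (vertical axes, percent) by 5′ start (top) and 3′ end (bottom), in bases from the annotated one (negative is upstream), with SD over 9 high (brown) and 9 low (blue) backfat libraries. miR-191 is concentrated on the annotated ends, miR-425-5p on a 3′ end 1 base shorter, and miR-425-3p on a 5′ start 1 base upstream.

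Of 15 shares compared between classes (5 kinds in each of 3 members), the moved 5′ start of miR-191 had the lowest p. Forms of miR-191 with another start, nearly all 1 base downstream and so with the seed ACGGAAT, held 2.37% to 2.69% of its counts in high backfat with a median of 2.50%. In low backfat they held 2.54% to 3.02% with a median of 2.75%. All 9 high libraries lay below the low median, and the ranges overlapped. The mean was 2.50% ± 0.116 in high and 2.75% ± 0.141 in low backfat, a difference of -0.246 percentage points with p = 0.00115 in an exact two-sided permutation test (SD, n = 9 each).

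When the same kind of share was tested in all 146 miRNAs that had forms with another start, 0 passed after Benjamini-Hochberg adjustment (0%), and 15 had an unadjusted p under 0.05 (10.3%). miR-191 had the lowest p of the 146, with an adjusted p of 0.118, so the difference was not called across miRNAs. The shares of miR-425-5p and miR-425-3p with another start gave p = 0.737 and p = 0.407 (exact permutation tests). Across the 146 miRNAs 65 were lower and 81 higher in high backfat.

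The difference in miR-191 was -0.254 points in females (exact permutation p = 0.0714, 4 against 5) and -0.241 in castrated males (exact permutation p = 0.0159, 5 against 4). By run of library codes it was 0.003 in AC485 to AC488, -0.343 in U074 to U077, -0.415 in U134 to U139 and -0.152 in U966 to U969, so the first of these runs showed none. The other 14 shares had exact permutation p-values of 0.163 or more. Over all miRNAs tested, an unadjusted p under 0.05 was found in 16.1% for the exact share, 13.6% for length variants, 6.67% for mismatch forms and 20.6% for other 3′ ends. Adjusted over all miRNAs, none of the 15 shares of the cluster passed. The share of forms with another 3′ end passed in 7 of 199 miRNAs (3.52%), the exact share in 1 of 199 (0.503%), and the shares of length variants and of mismatch forms in 0 of 199 and 0 of 195.

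The direction of change at the 3′ end was looked at after those shares had been seen. miR-425-5p forms longer than the annotated sequence held 19.3% to 26.2% of its counts in high backfat with a median of 23.2%, and 15.6% to 23.0% in low backfat with a median of 19.7%. High libraries lay higher, 8 of 9 above the low median. The means were 23.0% ± 2.15 and 19.8% ± 2.52, a difference of 3.27 points (exact permutation p = 0.00934, adjusted p = 0.0560 over 12 such shares). Of the 18 values that leave out 1 library 2 passed. They were 3.73 points without high replicate 1 (adjusted p = 0.0183, permutation test) and 3.52 without high replicate 3 (adjusted p = 0.0491, permutation test). Shares by direction of the 3′ end or by last base were not tested over all miRNAs. The share with another 3′ end, which was, had an unadjusted p under 0.05 in 41 of 199 (20.6%). The difference in longer forms of miR-425-5p was 4.49 points without the libraries AC485 to AC488, with an adjusted p of 0.04396 (permutation test). By run it was 0.661, 5.95, 5.17 and 1.22 points in the order given above.

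Forms of miR-425-5p whose last base was changed to A were also more frequent in high backfat, at 0.925% ± 0.363 against 0.494% ± 0.248 (exact permutation p = 0.00761, adjusted p = 0.0560). Shorter forms were less frequent, at 64.3% ± 3.91 against 68.2% ± 2.93 (exact permutation p = 0.0329, adjusted p = 0.131). Neither passed with all libraries. Without high replicate 1 both did, with adjusted p-values of 0.0183 and 0.0354 (permutation tests). Without high replicate 3 the last base A did (adjusted p = 0.0491, permutation test). The longer, shorter and last base A shares are parts of 1 total and overlap, T25A being both longer and changed to A. They are therefore not separate results. Low replicate 9 was listed at 0 for the last base A, with 3642 miR-425-5p counts and no cluster count above 0 under 10. For miR-191 the same 3 differences had the same signs (0.382 points longer, 0.0659 last base A, -0.363 shorter) with exact permutation p-values of 0.103, 0.0818 and 0.129. For miR-425-3p they were 0.487, -0.850 and 0.512 points (exact permutation p-values of 0.648, 0.192 and 0.788). The last base A and the shorter forms thus went the other way. Its last base A was listed at 0 in high replicates 1 and 9, which had 306 and 225 miR-425-3p counts. Forms under 10 counts may be listed at 0 there too, and their part in the -0.850 points was not tested.

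**Figure D4:**
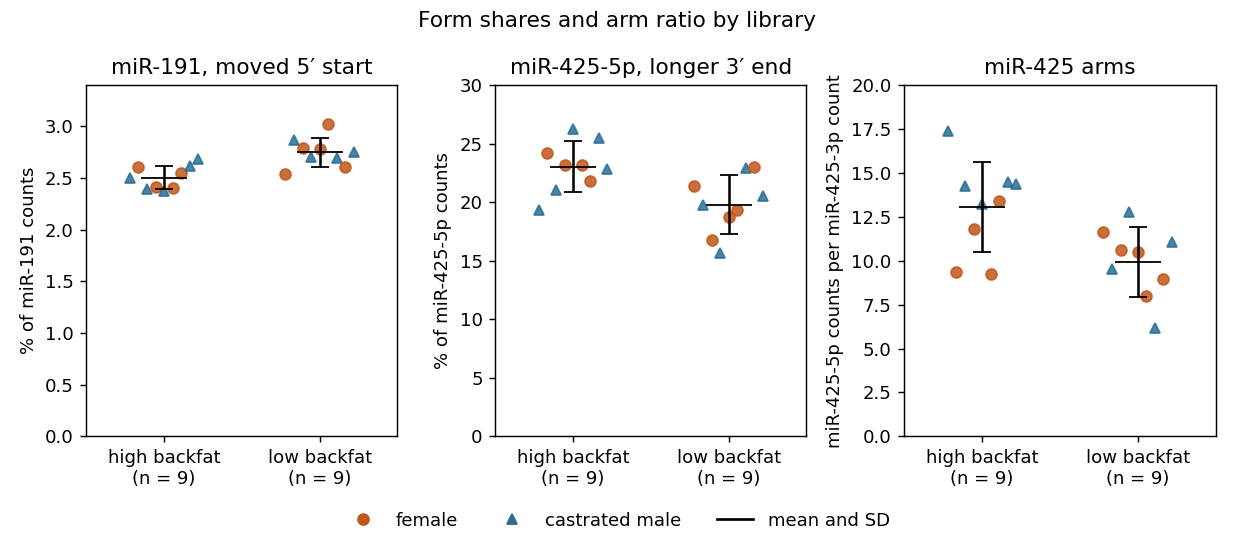
Share of miR-191 counts with another 5′ start, share of miR-425-5p counts longer than annotated at the 3′ end (both percent), and miR-425-5p counts per miR-425-3p count, by library; circles are females, triangles castrated males, black bars the mean and SD. High libraries lie lower in the left panel (2.50% against 2.75%) and higher in the others, with overlap in each.

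Single entries of the table were tested in the same way. Of the cluster's 393 sequences 156 passed the filter on low counts, among 7330 entries tested. By edgeR 0 of 7330 passed (0%), with 643 at an unadjusted p under 0.05 (8.77%), and 13 of the cluster's 156 among these. DESeq2 called 258 entries (3.52%), 5 of them in the cluster: A7G, T24A and T25A of miR-191, and of miR-425-5p the form longer by 1 base and T25A. With a minimum mean of 10 CPM, edgeR called 56 of 1919 entries (2.92%), with A7G of miR-191 alone from the cluster.

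The A7G form of miR-191 changes the seventh base, inside the seed. It averaged 49.9 ± 80.5 CPM in high and 2.79 ± 1.12 CPM in low backfat (SD, n = 9 each; log2 fold change 4.16 ± 0.99, adjusted p = 0.119, edgeR). The difference came from few libraries: the form held 0.569% and 0.565% of miR-191 counts in high replicates 6 and 8, 0.0964% and 0.107% in high replicates 1 and 3, and at most 0.0178% in the other 14 libraries. In 56 other mature miRNAs with A at base 7, the summed A7G forms came to 0.524% and 0.525% of the summed exact forms in the same replicates 6 and 8, to 0.118% and 0.121% in replicates 1 and 3, and to at most 0.0246% in the rest. The A7G form of miR-191 was thus high in the same 4 libraries as those of the other miRNAs. That of miR-425-5p was listed above 0 in high replicates 6 and 8 alone.
miR-191, A7G: caacggGatcccaaaagcagctg

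A further change at the same base, A7C, was unevenly spread without following class. It held 1.94% to 4.07% of miR-191 counts in 8 libraries (high replicates 1, 2, 3 and 9 and low replicates 2, 7, 8 and 9) and 0.0032% to 0.140% in the other 10. These 8 libraries took in all of the run AC485 to AC488, none of U134 to U139 and part of each other run. For miR-425-5p the A7C form held 1.02% to 4.03% in the same 8 libraries and was listed at 0 in the other 10. Its A10C form held 0.996% to 3.59% in those 8 and was likewise listed at 0 in the rest. The smallest count above 0 among all cluster entries is 10, so a form listed at 0 may have had fewer reads than that. In the 56 other miRNAs with A at base 7 the A7C forms came to 1.56% to 3.92% of the exact forms in these 8 libraries and to 0.001% to 0.12% in the others. These forms are shown because they change the seed (A7C) or the strand beyond it (A10C), with the changed base in capitals. Whether they are misread or altered RNA was not tested.
miR-191, A7C: caacggCatcccaaaagcagctg
miR-425-5p, A7C: aatgacCcgatcactcccgttg
miR-425-5p, A10C: aatgacacgCtcactcccgttg

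**Figure D5:**
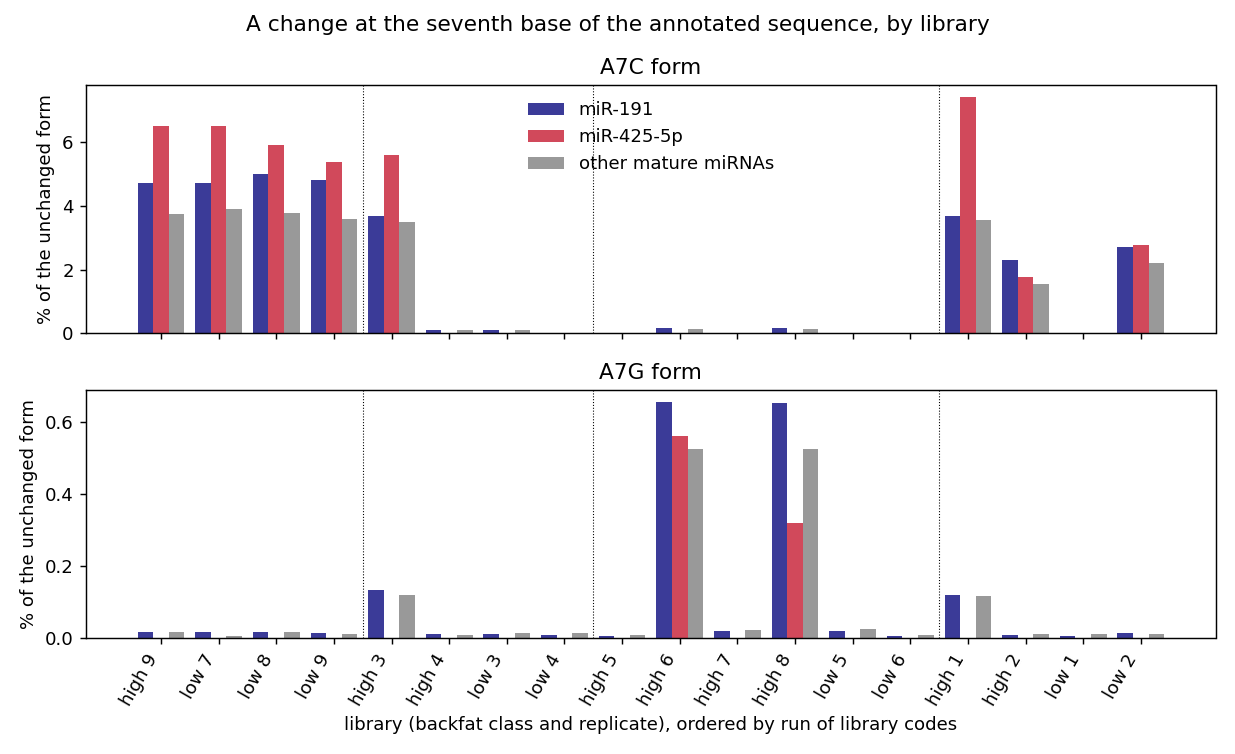
Counts of the A7C (top) and A7G (bottom) forms in percent of the unchanged form for miR-191, miR-425-5p (its 22-base main form) and 56 other mature miRNAs with A at that base, by library; dotted lines part the 4 runs of library codes. All 3 series are high in the same libraries: 8 for A7C, and mainly high replicates 6 and 8 for A7G.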

How the data were processed

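Small RNA libraries of 18 backfat samples (TruSeq Small RNA kit) were read from one end over 100 bases, with 2 samples sharing a lane, as the labels state. The deposited raw counts give, for every sequence variant of a mature miRNA, the reads found in a library. The deposited normalised signal is that count over a library's size factor (0.464 to 1.93), as division of both tables showed. The submitters' processing notes list Bowtie 0.12.7, HTSeq, DESeq2 1.4.5 and the build Sscrofa10.2, with no roles. The count tables hold 2 columns that match no sample, which were not used. The positions of genes in Sscrofa10.2 were not used here, and neighbours were taken by name.

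The members and lists were chosen with earlier results of these data known. Each sequence was counted once per mature miRNA. Library totals were 9601510 to 34588252 counts over distinct sequences. edgeR 4.0.16 (quasi-likelihood F test, filterByExpr with a minimum count of 10, TMM, sex as a covariate, Benjamini-Hochberg, threshold 0.05) was fitted to all miRNAs and to single entries, in R 4.3.3. The fit was tested on simulated data. Shares and ratios were compared by exact permutation tests over 48620 splits, and correlations by 100000 permutations. Alternatives used DESeq2 1.42.0, limma 3.58.1 on log2 of the deposited normalised signal plus 1, other filters, covariates, libraries and forms.

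Named forms were the 8 most abundant of each member, the most abundant with another 5′ start in each direction, and any past the threshold. Outside the cluster, the 5 miRNAs most correlated with each member and a list of 12 reference miRNAs were named, of which miR-93, miR-25 and miR-26a were not matched by name. The forms A7G, A10C, T24A and T25A, the forms by direction of the 3′ end, the splits by sex and run of shares and ratios, the neighbours of miR-425-3p and the tests over all miRNAs were chosen after values had been seen. Each library is 1 animal, so p-values measure the spread between animals and their libraries.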

Additional observations from a re-analysis of the deposited data

Results flagged for a closer look

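In 88 groups of 9 libraries checked for a library far from the others, 8 held one, where chance gives about 1 in 20. High replicate 9 had the lowest share of miR-191 length variants in its class (7.08%), the lowest share of miR-191 forms with another 3′ end (5.62%) and the lowest share of the 21-base form of miR-191 (0.382%). High replicate 1 had the highest share of miR-425-3p length variants (66.3%) and of its main upstream-start form (33.0%). Low replicate 6 had the highest share in its class of the A3T form (3.04%) and the A2T form (3.28%) of miR-191, and of the T3A form of miR-425-5p (2.68%). Other mature miRNAs with the same base at the same place also had their highest value among low libraries in replicate 6, with summed A3T forms at 5.76%, A2T forms at 2.93% and T3A forms at 4.73% of the exact forms.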

How the results depend on the processing

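No paired analysis was made, because the labels give no pairing of animals across the classes. They carry no replicate numbers either, and those used here number the libraries of each class in the order of the samples. The 3 members were called in no contrast of summed miRNAs under any alternative run, and the direction of the class difference kept its sign for each. The number of all summed miRNAs called between classes, 8, was 1 with DESeq2 size factors, 1 with no filter, 22 with DESeq2, 0 with age as a covariate, 3 with exact and length variants only, 0 with limma, 0 without the libraries AC485 to AC488, and 0 to 13 when 1 library was left out. In castrated males the count was 5 with age and 2 to 14 without 1 library. For the difference between sexes it was 3 with DESeq2, 1 with forms counted in all 18 libraries, an alternative added after the data were seen, and 0 to 3 without 1 library. Single entries called numbered 15 with library totals over distinct sequences (also added), 2 with DESeq2 size factors, 56 with at least 10 CPM, 258 with DESeq2, 13 with limma and 0 to 29 without 1 library, of which the cluster held 1 with at least 10 CPM and 5 with DESeq2.

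Some uncalled values changed sign, and the cause was not tested. The castrated against female value of miR-425-5p was -0.0489 with exact and length variants only, -0.0339 with forms counted in all 18 libraries and -0.0147 to 0.094 without 1 library. In females, miR-191 was 0.0162 with run as a covariate, 0.0032 with exact and length variants only, 0.0461 with every listing summed and -0.173 to 0.0249 without 1 library, and miR-425-3p was -0.0178 with age and -0.0631 to 0.282 without 1 library. The difference between sexes of miR-425-5p was -0.01 with at least 10 CPM, -0.0947 with exact and length variants only, -0.0844 with forms counted in all 18 libraries and -0.0677 to 0.207 without 1 library.

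The share of miR-191 with another 5′ start differed by -0.237 points with single mismatch forms left out, where its adjusted p over the 15 cluster shares moved from 0.0173 to 0.07404. It kept its side of the threshold in all 18 values without 1 library (-0.272 to -0.213), but not when adjusted over all 146 miRNAs (0.118). Without the libraries AC485 to AC488 the exact share of miR-191 differed by -0.582 and its other 3′ ends by -0.0371. With single mismatch forms left out, the other 3′ ends differed by -0.0608 for miR-191 and -1.95 for miR-425-3p, and the length variants of miR-425-3p by -0.122. With forms counted in all 18 libraries the mismatch shares differed by -0.0917 for miR-191 and -0.53 for miR-425-5p. Without 1 library the ranges were -0.441 to 0.747 (miR-191 exact), -0.523 to 0.701 (miR-191 mismatch), -0.079 to 0.285 (miR-191 other 3′ end), -0.721 to 1.33 (miR-425-5p mismatch), -0.231 to 0.0229 (miR-425-5p other 5′ start) and -0.167 to 1.62 (miR-425-3p exact).

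For shares added later, the longer 3′ end of miR-425-5p ran from 2.75 to 3.73 without 1 library, its shorter end from -4.64 to -3.20 and its last base A from 0.347 to 0.485. The shorter end of miR-425-3p differed by -0.185 without AC485 to AC488, -1.76 with single mismatch forms left out, -0.242 with forms counted in all 18 libraries and -0.701 to 1.18 without 1 library, and its longer end by -0.194 with single mismatch forms left out and -0.0069 to 0.95 without 1 library. The log2 arm ratio ran from 0.319 to 0.459 between classes and from 0.175 to 0.362 between sexes without 1 library, the last without low replicate 7 and past the threshold (adjusted p = 0.0406, permutation test). Without AC485 to AC488 the ratio of miR-191 to miR-425-5p differed by 0.0021 between classes and -0.0055 between sexes. The correlation of the miR-425 arms was 0.232 without AC485 to AC488, 0.53 without TMM and -0.261 to 0.198 without 1 library, and that of miR-191 with miR-425-3p was 0.253 without TMM and -0.255 to 0.0084 without 1 library. Depth limits the rarer forms: those counted in all 18 libraries were 76 of 306 for miR-191, 8 of 66 for miR-425-5p and 8 of 21 for miR-425-3p.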
